A study of Mus musculus with 9 samples.

Results

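Expression of 8 genes was examined: Parp9, Parp10, Parp11, Parp12 and Parp14, which encode interferon-linked members of the PARP family of ADP-ribosyltransferases, Dtx3l, which encodes the ubiquitin ligase partner of Parp9, and Parp1 and Parp2, the DNA damage enzymes of the family, which served as members that interferon is not known to induce. The genes were chosen by name, and all 8 were among the 19938 genes that had a probe set of their own in a table of 35556 probe sets. Each of the 8 had 1 such probe set, so no choice between probe sets entered their values. All of them lay above the array median of all probe sets, which was between 6.24 and 6.38 on the log2 scale, on all 9 arrays.

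PARP enzymes take the ADP-ribose unit from NAD and attach it to proteins. Parp1 and Parp2 bind broken DNA and build long chains of ADP-ribose that recruit repair factors, whereas most of the interferon-linked members attach single units and act in antiviral defence. Type I interferons act through the JAK kinases and through a complex of Stat2 and Irf9, which binds the interferon-stimulated response element in promoters, and Parp9, Dtx3l, Parp10, Parp11, Parp12 and Parp14 are known targets of this response in many cell types. Parp9 forms a stable complex with Dtx3l, and the pair of genes shares a promoter region.

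The samples were 3 lines of mouse mammary carcinoma cells with 3 arrays each. 4T1 is the parental line, untreated and described as wild type. MR20 is made up of the 4T1 cells that survived methotrexate, a folate antagonist, added at 20 µg/ml by the labels, whereas the name given in the study refers to ng/ml, and that grew without drug for 2 weeks before RNA was taken. DR500 holds the survivors of doxorubicin, an anthracycline, raised in steps to 500 ng/ml and, by the study's methods, also followed by growth without drug. The labels give a selection of at most 2 weeks for both lines. For DR500, the study's methods instead describe a week at each of several rising doses, which is longer. For DR500, some label fields name methotrexate, and the drug given in the treatment protocol and in the study's methods is used here. Each selected line is a single population of survivors, and the RNA of triplicate cultures was taken from it. The labels call the arrays of 4T1 and MR20 biological replicates and those of DR500 samples. The study's figure legend describes its results on 4T1 and DR500 as coming from biological triplicates. They do not show that the cultures were selected separately. The p-values thus cover no more than the spread among those cultures, which for DR500 could be technical by the labels alone. The labels of DR500 are worded unlike the other 6 and no batches are stated, so that an array batch and the line cannot be told apart for DR500. In bulk RNA, a change in the share of cells that express a gene and a change in RNA per cell cannot be told apart.

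Values are log2 intensities after robust multi-array normalization (RMA), and the 3 lines differed widely beyond these genes. The carcinoma marker Krt8 was near 13.4 in 4T1 and DR500 and 13.6 in MR20. However, 7 of 10 mammary carcinoma markers fell in DR500 against 4T1, where 21.3% of all genes did, and Epcam fell by 4.19 on the log2 scale. Of 13 leukocyte markers, 13 lay below the array median in 4T1 and MR20 and 12 in DR500, where Cd53 rose by 4.35 and the summed signal of the list was 953 to 1080, against 419 to 436 in 4T1 and 415 to 467 in MR20. Summed fibroblast markers were 4680 to 5050 in DR500, 1110 to 1180 in 4T1 and 938 to 980 in MR20, and endothelial markers 3020 to 3510, 1880 to 1990 and 2320 to 2500. Fbln1 and Pdgfra, which averaged 11.64 and 10.07 in DR500, and Eng, which averaged 11.48, were the brightest of these markers there. In DR500 against 4T1, 3 of 10 fibroblast markers rose and 1 fell, where 20.2% of all genes rose and 21.3% fell. Of 10 endothelial markers, 1 rose and 9 did not pass the test. The part of these differences in the results on DR500 was not tested.

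In MR20, all 6 interferon-linked genes were higher than in 4T1, and both DNA damage enzymes were lower. Parp14 rose 8.59-fold, Parp9, Dtx3l, Parp11 and Parp12 rose by 2.88- to 3.10-fold, and Parp10 by 1.79-fold, while Parp2 fell to 0.502 of its level in 4T1 and Parp1 to 0.845. All 6 rises passed an adjusted p of 0.05, as did 15.4% of all genes in that direction, and 5 of the 6 exceeded 2-fold, as did 1.41% of all genes. The falls of Parp1 and Parp2 passed too, as did 17.1% of all genes in that direction. All MR20 arrays lay above all 4T1 arrays for each of the 6, which held for 21.4% of genes, and below them for Parp1 and Parp2, which held for 23.8%. The 6 genes had a median log2 change of 1.57, against -0.01 over all genes. In DR500, by contrast, 2 of the 6 rose against 4T1, where 20.2% of all genes did. These were Parp14 and Parp10, by 1.39-fold and 1.30-fold, and the changes of the other 4 did not pass the test.

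Parp9 encodes a macrodomain protein that works with Dtx3l and has little catalytic activity of its own. Its 3 arrays gave 8.78, 8.63 and 8.72 in 4T1, 10.37, 10.30 and 10.36 in MR20, and 8.72, 8.70 and 8.77 in DR500. The MR20 arrays stood clear of both other lines, whose values overlapped. The gene rose by 1.63 ± 0.06 (log2 fold change ± SE from limma, n = 3 per line, adjusted p = 2.34e-08) in MR20 and ranked 120th by size of rise among all genes. Between DR500 and 4T1 the log2 difference was 0.02, with a 95% interval from -0.106 to 0.154.

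Dtx3l is a ubiquitin ligase of the Deltex family. Its log2 values were 8.87, 8.91 and 8.83 in 4T1, 10.52, 10.46 and 10.40 in MR20, and 8.81, 8.96 and 9.01 in DR500. Again only MR20 stood apart, and the other lines overlapped. The rise in MR20 was 1.59 ± 0.07 (adjusted p = 7.88e-08), and the difference of DR500 from 4T1 was 0.06, with an interval from -0.0898 to 0.206. The log2 gap between Parp9 and Dtx3l on the same array changed by 0.0464 from 4T1 to MR20 (p = 0.6, exact permutation test, two-sided, n = 3 per line) and by -0.0342 from 4T1 to DR500 (p = 0.9, same test), where 3 against 3 arrays allow no p below 0.1, so that no difference could have passed.

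Parp14, a large macrodomain enzyme known from interleukin-4 signalling and antiviral defence, had the largest rise of the 8 in MR20. It measured 7.30, 7.20 and 7.18 in 4T1, 10.42, 10.23 and 10.34 in MR20, and 7.59, 7.69 and 7.82 in DR500. The 3 lines did not overlap, with DR500 between the others and nearer to 4T1. The log2 change was 3.10 ± 0.08 in MR20 (adjusted p = 2.09e-09, 33rd largest rise of all genes) and 0.48 ± 0.08 in DR500 (adjusted p = 0.000475, 1721st). Parp14 thus rose by 1.47 more than Parp9 and by 1.52 more than Dtx3l in MR20, and by 0.452 and 0.418 more in DR500. In each of these 4 pairs, the array-wise differences of the selected line and of 4T1 did not overlap, which gave p = 0.1 in an exact two-sided permutation test, the smallest that 3 against 3 arrays allow, before any adjustment over the 6 pairs tested.

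Parp10, which attaches single ADP-ribose units and is known as a partner of Myc, had the smallest rise and the widest spread of the 6 in MR20. The arrays gave 7.57, 7.53 and 7.65 in 4T1, 8.44, 8.61 and 8.23 in MR20, and 8.01, 7.98 and 7.90 in DR500. As for Parp14, all arrays of DR500 lay between those of 4T1 and MR20. It rose by 0.84 ± 0.09 in MR20 (adjusted p = 5.58e-05, 360th) and by 0.38 ± 0.09 in DR500 (adjusted p = 0.00628). Parp10 was the only one of the 6 below 2-fold in MR20.

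**Figure D1:**
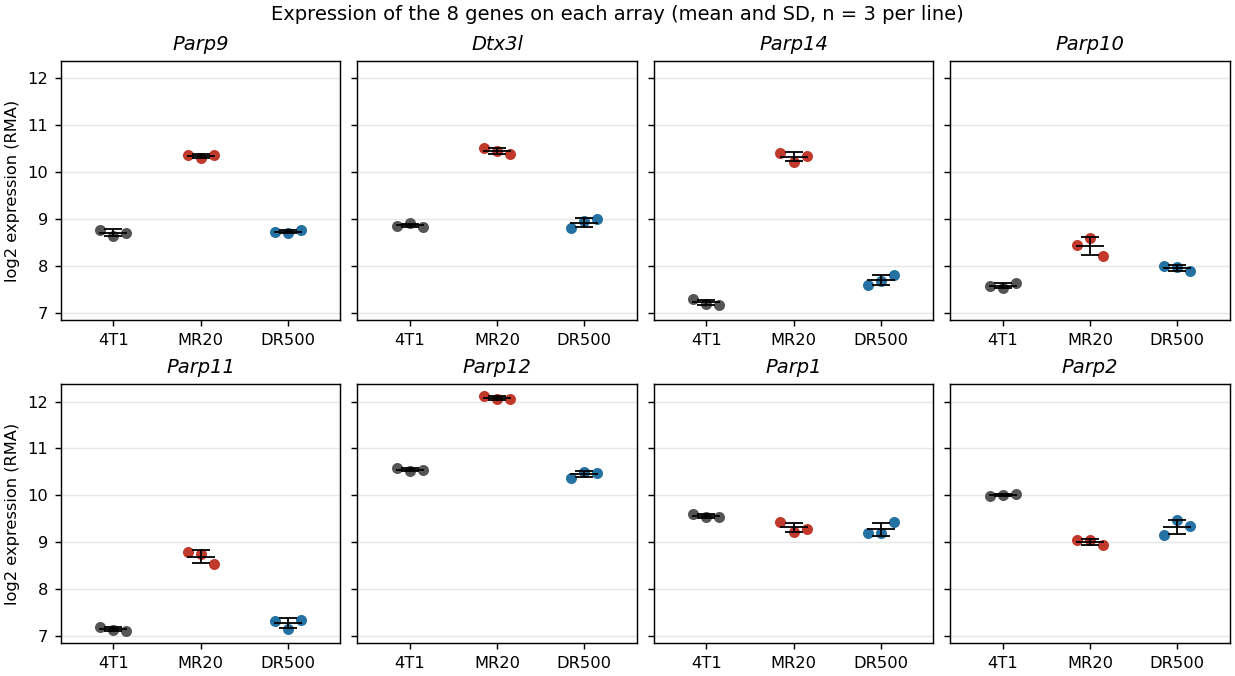
Log2 expression (RMA) of each gene on each array, with points for the 3 arrays of 4T1 (grey), MR20 (red) and DR500 (blue) and black bars for the mean and SD of each line. The 6 interferon-linked genes sit highest in MR20, DR500 overlaps or borders 4T1 for Parp9, Dtx3l, Parp11 and Parp12, and Parp2 sits highest in 4T1 at 9.98 to 10.04.

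Parp11 encodes an enzyme that attaches single ADP-ribose units and is known to act on the interferon receptor pathway. Promoter windows from RefSeq on the GRCm38.p6 build were at hand for 5 of the 8 genes, in 6 windows: 2 for Parp11 and 1 each for Dtx3l, Parp12, Parp1 and Parp2. The 250 bases before the annotated start are printed for Parp11 (first window, chr6:127446590-127446839, plus strand), Parp12 (chr6:39118350-39118599, minus strand) and Parp2 (chr14:50807666-50807915, plus strand), to set a window with an interferon-stimulated response element beside one without it from a gene that also rose in MR20 and one from a gene that fell. The start is that of the promoter window. The gene spans of Parp11 and Parp2 begin shortly before it, inside the printed windows, at chr6:127446830 and chr14:50807897. Capitals mark the element, searched on both strands as GAAA, any 2 bases and GAAA again.
Parp11: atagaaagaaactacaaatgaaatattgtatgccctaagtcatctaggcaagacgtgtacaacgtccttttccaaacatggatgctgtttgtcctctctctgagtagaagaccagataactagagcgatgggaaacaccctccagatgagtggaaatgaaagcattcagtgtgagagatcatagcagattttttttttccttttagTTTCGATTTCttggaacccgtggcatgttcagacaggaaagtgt
Parp12: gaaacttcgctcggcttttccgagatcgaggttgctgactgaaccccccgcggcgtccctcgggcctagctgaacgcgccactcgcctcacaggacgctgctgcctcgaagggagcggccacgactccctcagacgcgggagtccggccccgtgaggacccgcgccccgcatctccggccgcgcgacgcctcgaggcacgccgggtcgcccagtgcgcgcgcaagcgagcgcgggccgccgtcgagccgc
Parp2: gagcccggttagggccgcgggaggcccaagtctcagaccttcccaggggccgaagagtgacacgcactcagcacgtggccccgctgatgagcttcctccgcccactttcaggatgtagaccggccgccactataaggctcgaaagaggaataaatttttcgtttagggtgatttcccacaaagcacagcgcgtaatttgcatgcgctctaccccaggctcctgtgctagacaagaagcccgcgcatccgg

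The first Parp11 window held 1 match to the element, 44 to 35 bases before the start and on the opposite strand. It also held the STAT dimer site, searched on both strands as TTC, any 3 bases and GAA, 37 to 29 bases before the start, so that the matches share 3 bases. Of 32851 promoter windows from 27025 genes, 3.44% held the first motif and 8.3% the second. The windows searched also held bases after the start, so these shares need not be those of the 250 bases before it. Neither was found in the second Parp11 window or in those of Dtx3l, Parp12, Parp1 and Parp2. This says only that these letters are not within those windows, which hold the 250 bases before those starts and the bases searched after them. The 3 printed windows also differ in base composition, with a GC content of 40.4% for Parp11, 73.6% for Parp12 and 58.8% for Parp2.

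Parp11 transcripts measured 7.19, 7.14 and 7.11 in 4T1, 8.80, 8.74 and 8.55 in MR20, and 7.32, 7.16 and 7.35 in DR500. MR20 stood clear of the other lines, while DR500 overlapped 4T1 through its replicate 2. The log2 change in MR20 was 1.55 ± 0.08 (adjusted p = 3.92e-07). In DR500 it was 0.13, with an interval from -0.0491 to 0.307 (adjusted p = 0.229), and it passed the test only when quantile normalization was repeated, at 0.23 (adjusted p = 0.0276).

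Parp12, a zinc finger member of the family that restrains viruses, gave 10.58, 10.53 and 10.55 in 4T1, 12.12, 12.05 and 12.06 in MR20, and 10.38, 10.49 and 10.49 in DR500. It rose by 1.52 ± 0.06 in MR20 (adjusted p = 2.8e-08), close to Parp9, Dtx3l and Parp11, although its probe set already read above 10 in 4T1. All 3 DR500 arrays lay below the 3 of 4T1, but the difference of -0.10 did not pass the test (adjusted p = 0.183, interval from -0.225 to 0.0243). Parp12 was the only one of the 6 whose DR500 mean was below that of 4T1.

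Parp2 had the clearest fall of the 8 genes. It measured 9.98, 10.01 and 10.04 in 4T1, 9.06, 9.05 and 8.94 in MR20, and 9.16, 9.48 and 9.34 in DR500. The 3 lines did not overlap, with MR20 lowest. The log2 change was -0.995 ± 0.08 in MR20 (adjusted p = 7.95e-06), just inside 2-fold and the 218th largest fall of all genes, and -0.68 ± 0.08 in DR500 (adjusted p = 5.1e-05). The printed upstream window of Parp2 overlaps Rpph1, which encodes the RNA of RNase P and ends 125 bases before the Parp2 gene span. This gene was added after its values were seen. Rpph1 fell by 0.26 in MR20 (adjusted p = 0.0117) and differed by -0.01 in DR500 (adjusted p = 0.95).

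Parp1, the most abundant enzyme of the family in most cells, differed less between the lines. Its values were 9.61, 9.53 and 9.54 in 4T1, 9.43, 9.23 and 9.29 in MR20, and 9.19, 9.21 and 9.44 in DR500. Both selected lines lay below 4T1 on all arrays and overlapped each other. The log2 change was -0.24 ± 0.08 in MR20 (adjusted p = 0.0407) and -0.28 ± 0.08 in DR500 (adjusted p = 0.017). The MR20 call was lost without any 1 of the 4T1 replicates or without MR20 replicate 2 or 3 (adjusted p = 0.0801 to 0.146), and also when arrays were centred on their medians (adjusted p = 0.151). The DR500 call was lost without 4T1 replicate 1 (adjusted p = 0.0614), without DR500 replicate 1 (0.0535) or 2 (0.0634), and with centred arrays (0.0763).

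In the comparison of DR500 with 4T1 as a whole, 2 of the 6 interferon-linked genes rose, where 20.2% of all genes did, and both DNA damage enzymes fell, where 21.3% did. None of the 6 rose beyond 2-fold, where 2.47% of genes did. The arrays of DR500 lay wholly above those of 4T1 for Parp14 and Parp10, as for 25.7% of genes, and wholly below for Parp12, Parp1 and Parp2, as for 24.4%. The median change of the 6 was 0.09, against 0.07 over all genes. The split of the background in this comparison moved with the scaling, from 4034 genes higher and 4239 lower to 6096 and 3773 when quantile normalization was repeated and 5886 and 3601 with centred arrays. For MR20 against 4T1 the split went from 3064 and 3409 to 3414 and 3317 and to 3247 and 2737 under the same scalings, and for DR500 against MR20 from 4234 and 4114 to 5823 and 3810 and to 4905 and 3802. Under all 17 alternatives Parp14 and Parp10 still rose, at 0.42 to 0.59 and 0.35 to 0.51. Both comparisons with 4T1 use the same 3 control arrays, so their values for the 8 genes are not independent.

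The log2 differences between the selected lines do not depend on the means of those arrays, which enter this comparison through the shared estimate of the spread. All 6 interferon-linked genes were lower in DR500 than in MR20, where 20.6% of all genes were lower, and 5 of them by more than 2-fold, where 3.23% were. The log2 differences were -2.63 for Parp14, -1.63 for Parp12, -1.61 for Parp9, -1.53 for Dtx3l, -1.42 for Parp11 and -0.47 for Parp10, with adjusted p from 1.8e-09 to 0.00178. Their median was -1.57, against 0.07 over all genes. The DR500 arrays lay wholly below those of MR20 for all 6, as for 23.4% of genes, and wholly above for Parp2, as for 26.4%. Parp2 was higher in DR500 by 0.31 ± 0.08 (adjusted p = 0.00874), as were 21.2% of all genes in that direction. For Parp1 the difference was -0.04, with an interval from -0.215 to 0.143 (adjusted p = 0.74).

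**Figure D2:**
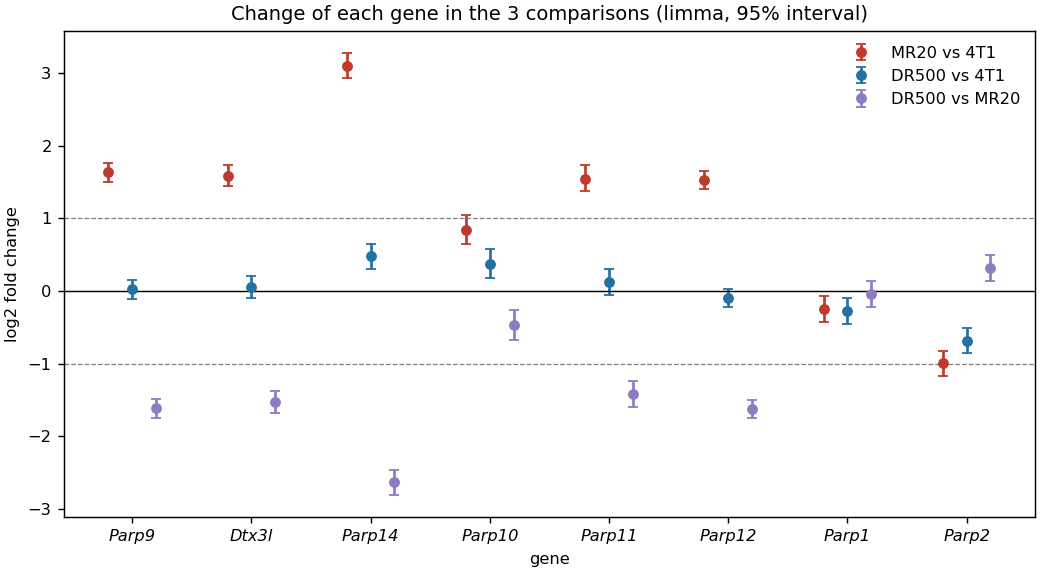
Log2 fold changes of the 8 genes in MR20 against 4T1 (red), DR500 against 4T1 (blue) and DR500 against MR20 (purple), as points with 95% intervals from limma, and dashed lines at 2-fold. Parp14 stands highest in MR20 at 3.10, Parp9, Dtx3l, Parp11 and Parp12 lie between 1.52 and 1.63, and the blue points lie between -0.68 and 0.48.

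Parp14, Dtx3l and Parp9 lie next to each other on chromosome 16. On GRCm38.p6, Parp14 spans chr16:35831892-35871518, Dtx3l chr16:35926515-35939027 and Parp9 chr16:35938470-35972621, so that the spans of Dtx3l and Parp9 overlap by 558 bases. Of the 10 measured neighbours, 5 on each side, 3 rose and 4 fell in MR20, where 15.4% and 17.1% of all genes did, with changes from -0.61 (Ccdc58) to 0.41 (Hspbap1, next to Parp14), against at least 1.59 for the 3 genes. In DR500, 2 rose and 4 fell, where 20.2% and 21.3% of all genes did, with changes from -0.84 to 0.20.

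At the other genes the neighbours differed more. The transcript 4930599N23Rik begins 123 bases from the end of the Parp12 span, inside the printed Parp12 window. It rose by 0.79 ± 0.09 in MR20 (adjusted p = 0.000103), from 6.27 to 6.62 in 4T1 to 7.18 to 7.39, and differed by 0.02 in DR500 (adjusted p = 0.873). Of the 6 neighbours of Parp12, no other passed the test in MR20, where 15.4% of all genes rose and 17.1% fell. In DR500, 4 of these 6 rose and 0 fell, where 20.2% and 21.3% of all genes did. Hipk2 rose by 1.34, Kdm7a by 0.57, Tbxas1 by 0.25 and Slc37a3 by 0.23.

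Next to Parp10 on chromosome 15 lies Plec, which encodes the cytoskeletal linker plectin and whose span ends 1616 bases before that of Parp10. Plec rose by 0.85 ± 0.09 in MR20 (adjusted p = 3.58e-05) and by 0.57 ± 0.09 in DR500 (adjusted p = 0.000302), beside 0.84 and 0.38 for Parp10. Its arrays, like those of Parp10, did not overlap between lines, at 8.11 to 8.32 in 4T1, 8.68 to 8.89 in DR500 and 8.98 to 9.21 in MR20. Eppk1 rose by 0.62 in MR20, Grina by 0.26 in MR20 and 1.20 in DR500, and Nrbp2 moved by -0.24 and 0.31. Around Parp11, the cyclin gene Ccnd2 fell by 1.42 in MR20 and by 3.64 in DR500, Tigar rose by 0.28 in MR20, and Tspan11 and Cracr2a rose by 2.14 and 0.34 in DR500. Of the 6 neighbours of Parp10, 3 rose and 1 fell in MR20, and 3 rose and 0 fell in DR500. For the 6 of Parp11 these counts were 1 and 1 in MR20, and 2 and 1 in DR500. Over all genes, 15.4% rose and 17.1% fell in MR20, and 20.2% rose and 21.3% fell in DR500.

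**Figure D3:**
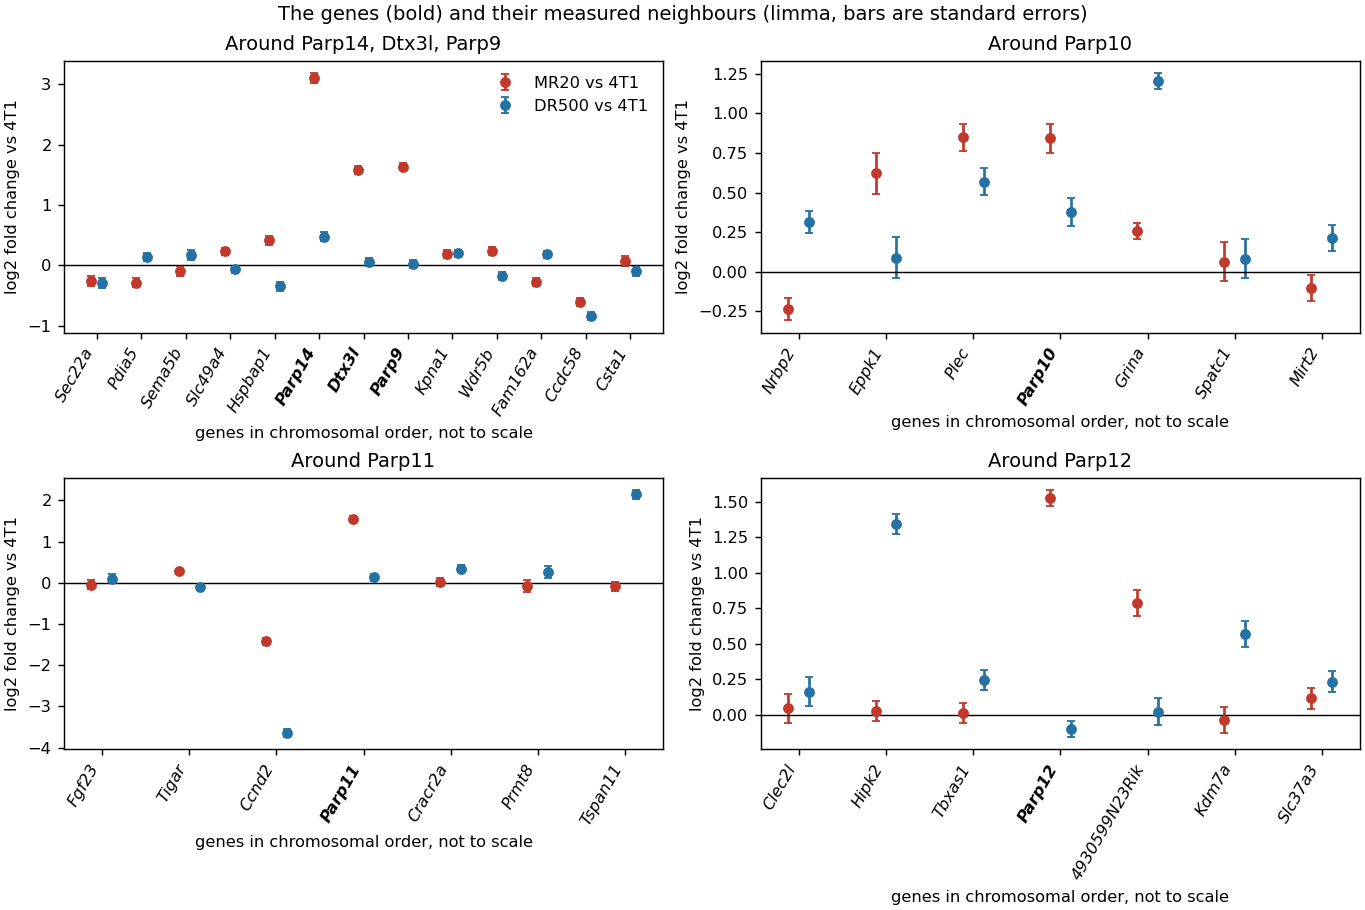
Log2 fold changes against 4T1 in MR20 (red) and DR500 (blue) for the genes in bold and their measured neighbours in chromosomal order, with standard errors from limma. On the chromosome 16 run, Parp14, Dtx3l and Parp9 rise above neighbours that lie between -0.61 and 0.41 in MR20, 4930599N23Rik rises beside Parp12, and Plec beside Parp10.

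The remaining PARP family genes moved in both directions. Of 8 measured, 2 rose and 1 fell in MR20, where 15.4% and 17.1% of all genes did, and 3 rose and 3 fell in DR500, where 20.2% and 21.3% did, with median log2 changes of -0.01 and 0.02. Zc3hav1, the zinc finger antiviral protein and itself an interferon target, rose by 0.83 in MR20 and by 0.48 in DR500. Parp8 rose by 0.43 and 0.51. Tnks2, a tankyrase of the telomere and Wnt pathways, fell by 0.19 and 0.58, the first of which was lost with centred arrays, without any 1 of the 4T1 replicates and without MR20 replicate 2 or 3. Parp6 fell by 0.97 in DR500 and differed by -0.09 in MR20 (adjusted p = 0.522), Parp3 rose by 0.34 and Parp16 fell by 0.25 in DR500 and differed by -0.02 and -0.01 in MR20, and Tnks and Tiparp passed the test in neither line. Dtx3l likewise moved without its family, since of the other 4 Deltex genes 0 rose and 2 fell in MR20 (Dtx4 by 0.28, Dtx3 by 0.22), and in DR500 Dtx3 and Dtx4 fell by 0.84 and 0.82 while Dtx2 rose by 0.20. In MR20, 1 Deltex gene in place of 2 fell with centred arrays or without 4T1 replicate 1 or 2 or MR20 replicate 2 or 3, and the rise of Dtx2 was lost without 4T1 replicate 1 or 2.

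Enzymes and readers on the other side of ADP-ribosylation changed within 2-fold. Among 14 genes for removal and reading of ADP-ribose, 2 rose and 6 fell in each comparison with 4T1, with medians of -0.17 in MR20 and -0.12 in DR500. Over all genes, 15.4% rose and 17.1% fell in MR20, and 20.2% rose and 21.3% fell in DR500. Hpf1, the cofactor that directs Parp1 and Parp2 to serine residues, averaged 9.96 in 4T1, 9.57 in MR20 and 9.10 in DR500, and fell by 0.39 (adjusted p = 0.000631) and 0.86 (adjusted p = 1.57e-06). Chd1l, a chromatin remodeller activated by ADP-ribose chains, fell by 0.73 and 0.53. Aplf, a reader of the chains, rose by 0.44 and 0.42, and Macroh2a1, a histone variant with a macrodomain, rose by 0.61 in MR20 and differed by 0.09 in DR500 (adjusted p = 0.171).

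For the NAD supply that all PARP enzymes draw on, 2 of 17 genes rose and 1 fell in MR20, against 15.4% and 17.1% of all genes, and 4 rose and 5 fell in DR500, against 20.2% and 21.3%. In MR20, 4 rose with the filter on dim genes or the trended and robust prior, and 2 fell with that filter or without 4T1 replicate 1. In MR20, Sarm1 rose by 0.44, Nadk by 0.31, and Nadsyn1, the last step from nicotinic acid, fell by 0.43. In DR500, Nadsyn1 fell by 0.94, the deacetylase Sirt1, which also uses NAD, by 1.15, and Nampt, the entry enzyme of NAD salvage, by 0.59. Of 19 genes for single-strand break repair, in which Parp1 and Parp2 act, 5 rose and 6 fell in each line, with medians of 0.05 in MR20 and -0.04 in DR500, where 15.4% and 17.1% of all genes rose and fell in MR20 and 20.2% and 21.3% in DR500. The number that rose in MR20 fell to between 1 and 3 without any 1 array of 4T1 or MR20, to 2 with all probe sets and to 3 with a replicate block, and in DR500 to 3 without 4T1 replicate 3. The 3 largest falls in MR20 were Neil1 by 0.80, Apex1 by 0.59 and Ung by 0.58, and in DR500 Polb fell by 1.01, Neil1 by 0.60 and Neil3 by 0.52. Those genes make or follow the base excision gap at which Parp1 and Parp2 are recruited.

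In the route from interferon to promoters, Irf7, Irf9, Stat2 and Usp18 were highest in MR20, as were the 6 targets. Of 16 genes, 10 rose and 3 fell in MR20, where 15.4% and 17.1% of all genes did, and 5 rose beyond 2-fold, where 1.41% did. In DR500, 10 rose and 4 fell, where 20.2% and 21.3% of all genes did, and none rose beyond 2-fold, where 2.47% did. Irf7, the amplifying transcription factor, averaged 6.11 in 4T1, 6.90 in DR500 and 11.04 in MR20. Irf9 averaged 8.33, 8.72 and 10.01 and Stat2 7.57, 7.75 and 9.76 in the same order, and of these Stat2 did not pass the test in DR500 (0.18, adjusted p = 0.0939). Usp18, an inducible brake on the receptor, went from 8.41 in 4T1 up to 12.59 in MR20 and down to 7.83 in DR500. Irf1 averaged 9.35 in 4T1, 9.60 in DR500 and 10.8 in MR20, where it rose by 1.45 (adjusted p = 2.07e-07). By line means, Irf2, Irf3, Jak2, Tyk2 and Ifngr1 were also highest in MR20. Of these, Irf3 and Ifngr1 did not pass the test in MR20 against 4T1, and Irf2, Jak2 and Tyk2 did not pass between DR500 and MR20. In the rest of the list another line was highest. Irf8 was lowest in MR20, at 8.40 in 4T1, 7.61 in MR20 and 7.997 in DR500, and Socs1, an inducible inhibitor of JAK kinases, was highest in DR500, at 8.27, 8.60 and 8.85. The chains of the type I interferon receptor fell in MR20, Ifnar1 by 0.63 and Ifnar2 by 0.27, and rose in DR500, by 0.34 and 0.51. The kinase gene Jak1 was higher than in 4T1 by 0.39 in MR20 and by 0.94 in DR500, and Ifngr1, a chain of the type II receptor, fell by 0.73 in DR500.

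**Figure D4:**
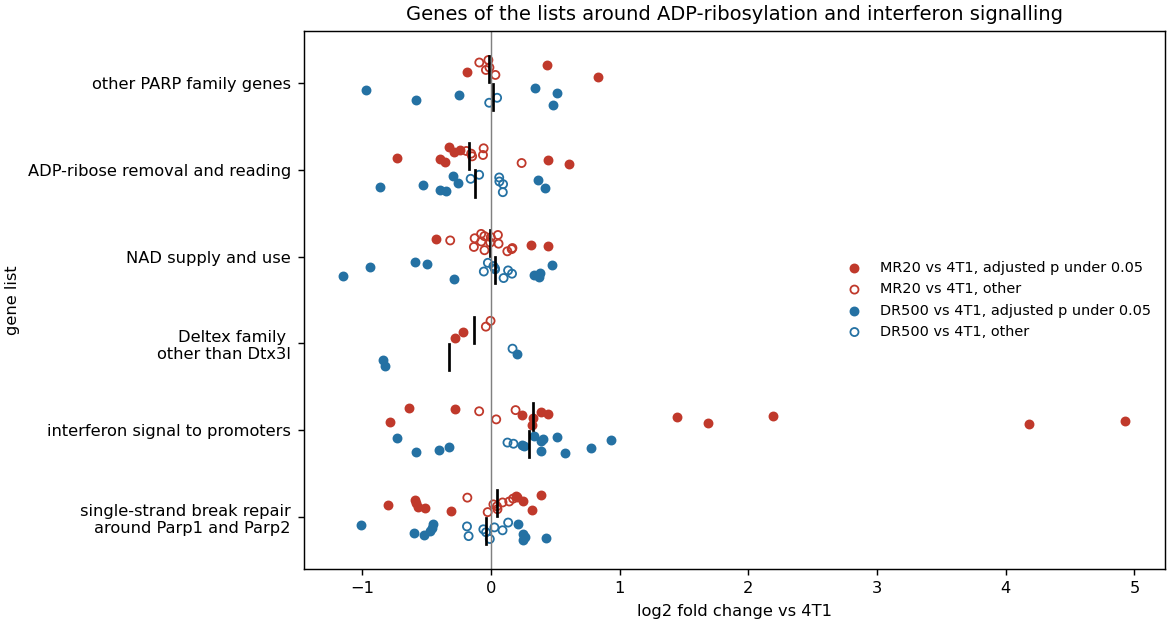
Log2 fold changes against 4T1 of the genes in 6 lists, in MR20 (red) and DR500 (blue), with filled points at an adjusted p under 0.05 and black bars at the list's median. Rises beyond 2-fold appear in the interferon list of MR20 alone, where 5 of 16 genes lie above 1 and Irf7 reaches 4.93.

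The genes whose pattern over the 9 arrays was most like that of each of the 8 were found by Pearson correlation, which here mostly reflects the 3 line means. Ifit3 (0.998), Oasl2 and Ifit1 were nearest to Parp9, Gbp3, Slc15a2 and Ifih1 to Dtx3l, Herc6, Oas1a and Tnc to Parp14, Tnc, Oas3 and Ccl5 to Parp11, and Irgm1, Ifit1 and Ifih1 to Parp12. Most of these are textbook interferon targets. Parp10 was nearest to Dennd2a (0.986), Atp6v1e1 and Polr2l, and the other 5 interferon-linked genes ranked from 334th to 841st by likeness to it among 19937 genes. Among those 5 themselves, each was within the first 112 of every other. Parp1 was nearest to Kif15, Pds5a and Ktn1, and Parp2 to Cryzl1, Ece2 and Sigirr, while Parp1 ranked 1611th by likeness to Parp2.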

How the data were processed

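RNA of 9 cultures was hybridized to 1-colour Affymetrix mouse whole-transcript arrays. The authors made the deposited log2 values with RMA (background correction, quantile normalization, probe summary) in affy. Versions, batches and whether 1 run normalized all arrays are not given in the sources used here. Probe sets with 1 symbol (21789) were assigned to genes by Entrez identifier where possible (21698), and for 999 genes with several the brightest on average was kept. No array was left out.

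A fit of all 9 arrays in limma 3.58.1 (R 4.3.3, with the package data.table, version 1.17.8) gave changes, standard errors and p-values, adjusted by Benjamini-Hochberg over 19938 genes within each comparison. A gene passed at an adjusted p under 0.05, and 2-fold is stated where used. On simulated data with 50 genes changed at each size in MR20 against 4T1, 45 were recovered at 1.5-fold, 47 at 2-fold, 49 at 3-fold and 50 at 8-fold. The number of arrays limits the precision.

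The 8 genes, the lists and the tests were chosen with earlier results of these data known. Named are the 8 genes, Irf7, Irf9 and Stat2, neighbours that pass, the remaining PARP family, the 3 largest changes of each list, and the 3 genes most like each of the 8. Rpph1, Irf1, Irf2, Irf3, Irf8, Jak2, Tyk2, Socs1, the Ifnar chains and the marker genes given by name were chosen after their values were seen. Listed genes without a probe set of their own in the annotation used are not analysed here. The 17 alternatives were a fit of the compared lines alone, a filter on dim genes, repeated quantile normalization, centring, all probe sets, the mean of a gene's probe sets, a trended and robust prior, a replicate block and the omission of each array.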

Additional observations from a re-analysis of the deposited data

How the results depend on the processing

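The count of the 8 genes that passed the test stayed within 1.5 times its value under all 17 alternatives, at 7 to 8 in MR20 against 4T1, 3 to 5 in DR500 against 4T1 and 7 in DR500 against MR20. Of 408 recomputed changes, 390 kept their direction and side of the threshold, 12 lost the call, all of them Parp1 against 4T1, 1 gained it (Parp11 in DR500 against 4T1) and 5 small differences turned sign. Those were Parp9 in DR500 against 4T1, at -0.0145 without 4T1 replicate 2 and up to 0.0594 without another array, and Parp1 in DR500 against MR20, at 0.0121 with quantile normalization repeated, and from -0.116 without DR500 replicate 3 to 0.0191 without MR20 replicate 1, with 0.00627 and 0.00114 without DR500 replicates 1 and 2. Of the list counts, 585 stayed within 1.5 times and 27 did not. The cause was not tested.

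Whether the replicate numbers pair the arrays was not settled. Deviations from the line means of arrays with the same number correlated, over genes, between -0.309 and 0.327. Arrays with different numbers were not compared, so that these values cannot show or exclude pairing. With the replicate number as a block, 7, 4 and 7 of the 8 genes passed in the 3 comparisons, and Parp1 in MR20, at -0.24, had an adjusted p of 0.0551 in limma. With all probe sets tested, this p was 0.0755.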
